A study of Vitis vinifera with 12 samples.

Results

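The miRNAs miR162, miR168 and miR403a were followed in grapevine (Vitis vinifera cv Corvina) on a custom CombiMatrix oligonucleotide array. They were chosen because their known targets in plants encode the silencing machinery itself. Their members are the perfect match (PM) probes whose reverse complement overlaps the mature miR162, miR168 or miR403 sequence by at least 18 bases without gap or mismatch. The rule found 11 of the 1947 PM miRNA probes, with 2 probes for miR162, 2 for miR168 and 7 for miR403a. Of these, 3 are full-length mature probes of 21 bases, among 81 mature miRNA probes on the array, and 8 are probes of 20 bases that start at the same base.

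Low molecular weight (LMW) RNA was labelled with Cy5 and hybridized to 12 arrays, 2 for each of 6 tissues. The fruit series held green berries at 5 weeks after flowering, veraison berries (the onset of ripening) at 9 weeks and mature berries at 15 weeks, all with the seeds taken out. The other tissues were roots, young inflorescences collected 3 weeks before flowering, and leaves. Roots came from plants grown in vitro and the other tissues from the field, so tissue and growth condition cannot be told apart for roots. The samples other than young inflorescences were labelled as pools, the 2 arrays of a tissue carried independently extracted LMW RNA, and the sources used here do not say whether the extractions came from different plants, so the spread between them may be partly technical. Slides were stripped and used 5 to 6 times, and which arrays shared a slide was not given in the sources used here.

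Plant miRNAs are cut from hairpin precursors by the enzyme DCL1 and then loaded into an ARGONAUTE (AGO) protein, which uses them to find complementary mRNAs. miR162 is directed against the DCL1 mRNA, miR168 against the mRNA of AGO1, the main ARGONAUTE for plant miRNAs, and miR403 against the mRNA of AGO2, which is known for antiviral defence. miR162 and miR168 thus belong to feedback loops that set the level of the machinery that makes and uses them, while miR403 is directed against a further ARGONAUTE. The target mRNAs were not measured on these arrays.

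The mature sequences, read as the reverse complement of the full-length probes, are shown because both the specificity control and the rule rest on them. Capitals mark the seed, bases 2 to 8.
miR162: uCGAUAAAccucugcauccag
miR168: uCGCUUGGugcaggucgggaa
miR403a: uUAGAUUCacgcacaaacucg
All 3 begin with U and carry different seeds. Without gaps, miR162 shared 6 identical positions with miR168 and 6 with miR403a, and miR168 shared 2 with miR403a, with no common run longer than 4 bases. Their GC content was 47.6% for miR162, 61.9% for miR168 and 42.9% for miR403a.

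Each PM probe had a mismatch (MM) probe carrying 2 substitutions, shown here because the MM signal measures how much of the PM signal depends on an exact match. Capitals mark the substituted bases in the DNA probes.
miR162 PM: ctggatgCagagGtttatcga
miR162 MM: ctggatgAagagCtttatcga
miR168 PM: ttccCgacctgCaccaagcga
miR168 MM: ttccAgacctgAaccaagcga
miR403a PM: cgagtttgtgCGtgaatctaa
miR403a MM: cgagtttgtgACtgaatctaa
Counted from the 5′ end of the probe, the substitutions were C8A and G13C for miR162, C5A and C12A for miR168, and C11A and G12C for miR403a.

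The array also tiled the precursors, and overlapping probes gave the stretch around each mature miRNA, in which capitals mark the mature sequence. It is printed for miR162, for miR168 and for 3 of the 6 miR403 precursors, to show that the miR403 precursors share the mature sequence within different flanks.
miR162 precursor: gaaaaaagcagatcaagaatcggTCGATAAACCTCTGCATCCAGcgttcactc
miR168 precursor: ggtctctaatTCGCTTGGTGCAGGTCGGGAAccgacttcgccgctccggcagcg
miR403 precursor 1: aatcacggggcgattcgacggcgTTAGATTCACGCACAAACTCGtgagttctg
miR403 precursor 2: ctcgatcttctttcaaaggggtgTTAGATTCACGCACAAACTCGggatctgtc
miR403 precursor 6: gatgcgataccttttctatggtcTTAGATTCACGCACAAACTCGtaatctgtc
The loop probe lay upstream of the mature sequence, which places it on the 3′ side of the hairpin, for miR162 and for all 6 miR403 precursors, and downstream for miR168. The RefSeq gene table for grapevine names 1 MIR162 gene, 1 MIR168 gene and 6 MIR403 genes (MIR403A to MIR403F), and which gene holds which of the numbered precursors was not determined.

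The PM signals of all 3 miRNAs were well above those of their own MM probes. miR162, which targets the DCL1 mRNA, had raw PM intensities of 567 and 1374 in green berries, 495 and 654 in veraison berries, 580 and 776 in mature berries, 507 and 619 in roots, 1124 and 442 in young inflorescences, and 396 and 154 in leaves (replicates 1 and 2). The MM probe of miR162 lay between 1.0 and 179 over the 12 arrays, with a median of 22.3. PM exceeded MM on all 12 arrays, and the lowest PM/MM ratio, 3.24, was that of mature berries replicate 1.

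miR168, which targets the AGO1 mRNA, had PM intensities of 1918 and 1047 in green berries, 1146 and 1151 in veraison berries, 538 and 654 in mature berries, 1434 and 551 in roots, 1201 and 1587 in young inflorescences, and 1140.5 and 1712 in leaves. Its MM probe was the least even of the 3. It read 129 and 38.5 in green berries, 158 and 472 in veraison berries, 181 and 711 in mature berries, 14.5 and 1.0 in roots, 281 and 683 in young inflorescences, and 9 and 12 in leaves. In mature berries replicate 2 the MM probe was brighter than the PM probe, with a PM/MM ratio of 0.92, the single array of the 12 on which miR168 missed the minimum ratio of 1.2. The 3 brightest MM readings also had the widest spread between the spots of the probe, with spot SDs of 558 in mature berries replicate 2, 634 in young inflorescences replicate 2 and 326 in veraison berries replicate 2. The probe of 20 bases for miR168 has an MM partner of its own, which read between 127 and 504, and there PM exceeded MM on all 12 arrays, with ratios from 2.37 to 10.1.

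miR403a, which targets the AGO2 mRNA, had PM intensities of 3197 and 1393 in green berries, 825 and 1205 in veraison berries, 525 and 656 in mature berries, 2173 and 2070 in roots, 1776 and 1131 in young inflorescences, and 1758 and 145 in leaves. The leaf arrays thus held both a reading above the median of 1299 and the lowest reading of this miRNA. The MM probe of miR403a lay between 1.0 and 234 with a median of 37.3, and PM exceeded MM on all 12 arrays.

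The PM/MM comparison was tested within arrays, where the scaling of the array cancels, by an exact two-sided sign-flip permutation test of the log2 ratio with intensities under 10 set to 10. The mean log2 PM/MM was 4.23 ± 1.62 for miR162 (SD, n = 12 arrays; exact p = 0.000488, the smallest that 12 arrays allow; Benjamini-Hochberg adjusted p = 0.00092 over 81 mature probes). It was 3.67 ± 2.53 for miR168, with PM above MM on 11 of 12 arrays (n = 12; exact test, adjusted p = 0.00165), and 5.01 ± 2.15 for miR403a (n = 12; exact test, adjusted p = 0.00092). Of the 81 mature probes, 62 (76.5%) passed this test with PM above MM, so passing it was common, and the median over all 81 was 2.20. A mean log2 PM/MM above that of miR162 was found for 15 of the 81 mature probes, above that of miR168 for 21 and above that of miR403a for 7. The test counted the 2 arrays of a tissue as separate units. With 1 mean ratio per tissue, the exact sign-flip test gave each of the 3 miRNAs an adjusted p of 0.0444, from the smallest exact p that 6 tissues allow.

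**Figure D1:**
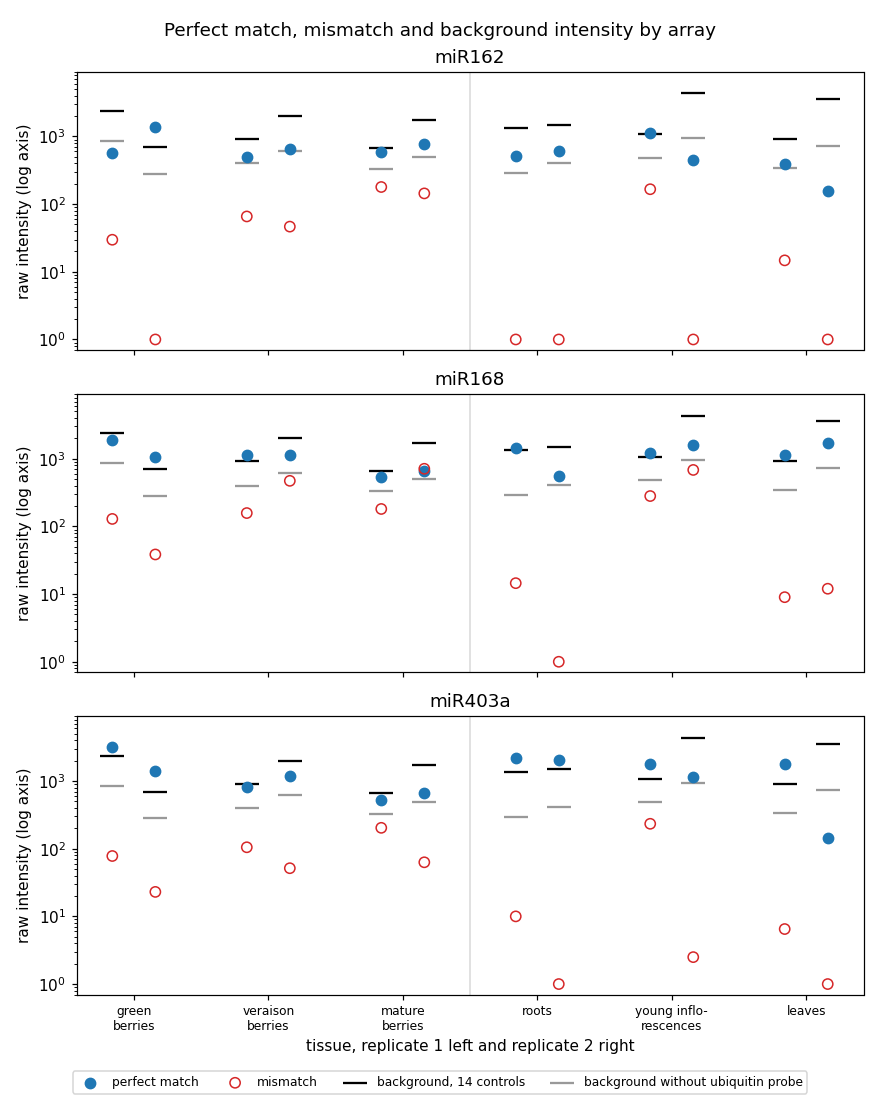
Raw intensity (log axis) on each of the 12 arrays of the PM probe (filled) and the MM probe (open) of miR162, miR168 and miR403a, by tissue, with the background of that array from 14 controls (black bar) and without the ubiquitin probe (grey bar). PM lies above MM on every array except mature berries replicate 2 for miR168 (654 against 711), while the black bar lies above most PM points.

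By the detection rule of the study, a probe is present on an array when its signal exceeds the mean plus 2 SD of 14 negative and degradation controls and the PM/MM ratio exceeds 1.2. It was applied here to the raw intensities of the full-length probes, and both arrays of a tissue had to pass. The background was high and uneven, between 666 and 4353 over the 12 arrays with a median of 1421, against median signals of all PM miRNA probes of 3.5 to 232. One control probe, named for ubiquitin, read 932 to 6938. Without it the background lay between 283 and 949.

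miR403a was called present by its full-length probe in green berries and in roots, and no other pair of a member and a tissue passed. This made 2 of 18 pairs, against 14% of the 486 pairs of all 81 mature probes with the 6 tissues, and 29 of the 81 mature probes (35.8%) were present somewhere. The full-length probe of miR162 exceeded the background on 2 of 12 arrays, green berries replicate 2 and young inflorescences replicate 1. That of miR168 did so on 5 arrays and that of miR403a on 6. The calls of miR403a were not shared by its 6 probes of 20 bases. On green berries replicate 1 these read at most 1981, under the background of 2374. On roots replicate 2 they read at most 1071, under the background of 1494, so none of them was called in either tissue. Without the ubiquitin probe, 13 of the 18 pairs were called, against 38.3% of all 486 pairs, and 55 of the 81 mature probes (67.9%) were present somewhere. These were veraison berries, mature berries and roots for miR162, every tissue but mature berries for miR168, and every tissue but leaves for miR403a. The study itself lists miR162, miR168 and miR403 as significantly expressed in all 6 tissues, so its calls differ from those made here. Why they differ was not tested. Absence of a call here does not show absence of these miRNAs. PM exceeded MM by more than the required ratio on all arrays but mature berries replicate 2 for miR168.

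Levels between tissues were compared on log2 intensities after quantile normalization over the 1947 PM miRNA probes. Most pairs below set tissues side by side that did not pass the background, so differences are differences in normalized signal and no fold change in abundance is read from them. miR162 averaged 9.66 ± 1.11 in green berries, 9.14 ± 0.18 in veraison berries, 9.96 ± 0.39 in mature berries, 9.50 ± 0.12 in roots, 9.07 ± 1.41 in young inflorescences and 8.49 ± 0.67 in leaves (log2, SD, n = 2 arrays each). Ordered by their means, roots and veraison berries were the only neighbours whose 2 arrays did not overlap. Further apart in that order, mature berries lay wholly above roots, veraison berries and leaves, and roots and veraison berries lay wholly above leaves. The tissue means of miR162 spanned 1.47, while the replicates of young inflorescences alone differed by 1.99 and those of green berries by 1.57.

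miR168 had the flattest profile of the 3. It averaged 10.43 ± 0.34 in green berries, 10.18 ± 0.49 in veraison berries, 9.74 ± 0.52 in mature berries, 10.02 ± 0.80 in roots, 10.04 ± 0.24 in young inflorescences and 10.62 ± 0.18 in leaves (log2, SD, n = 2 arrays each). All neighbours in the order of its means overlapped. Further apart in that order, leaves lay wholly above young inflorescences and mature berries, and green berries lay wholly above mature berries. The means spanned 0.88, and 73 of the 81 mature probes had a larger span, against a median span of 2.08.

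miR403a averaged 11.25 ± 1.11 in green berries, 9.93 ± 0.06 in veraison berries, 9.72 ± 0.48 in mature berries, 10.96 ± 0.38 in roots, 9.99 ± 1.07 in young inflorescences and 9.68 ± 2.44 in leaves (log2, SD, n = 2 arrays each). Green berries and roots were highest. Every neighbour in the order of means overlapped, and the 2 leaf arrays differed by 3.45, more than the span of 1.57 between the tissue means. Tissues further apart in the order did separate. Green berries (10.47 and 12.03) and roots (10.69 and 11.23) lay wholly above veraison berries (9.89 and 9.97) and mature berries (9.38 and 10.06). Young inflorescences and leaves overlapped every other tissue.

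**Figure D2:**
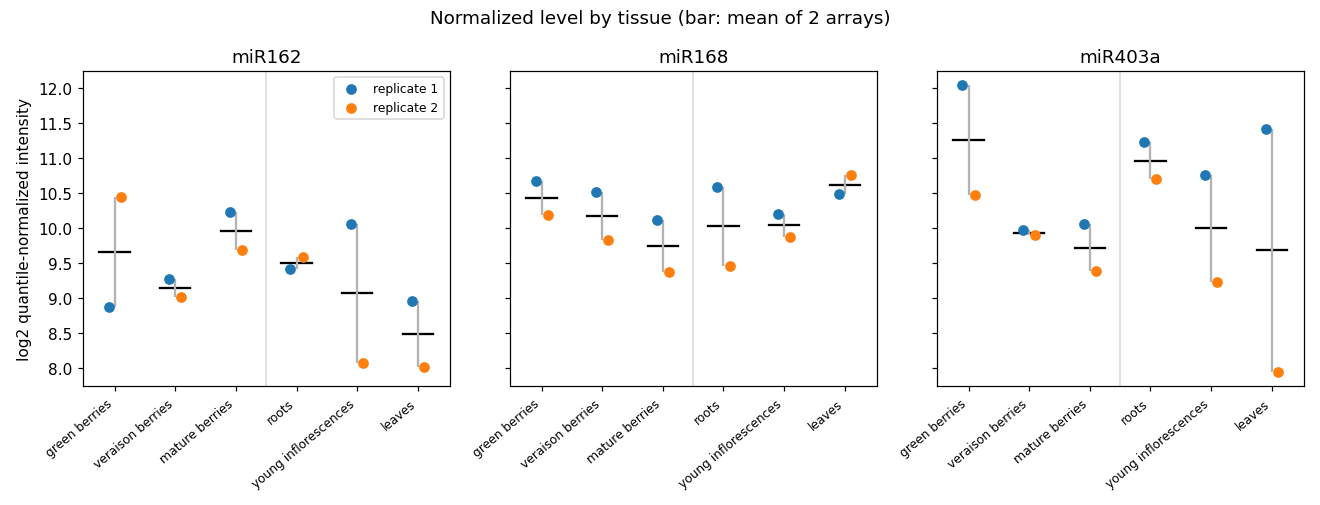
Log2 quantile-normalized intensity of the full-length probes by tissue, with both replicates as points and the tissue mean as a bar. The gap between replicates reaches 3.45 for miR403a in leaves and 1.99 for miR162 in young inflorescences, whereas the points of miR168 stay between 9.37 and 10.75.

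The 6 tissues were compared with limma's moderated F test on mature probes present in at least 1 of the tissues compared. miR403a was the member that entered the test, and it did not pass (adjusted p = 0.611 over 29 probes), while 12 of the 29 probes did (41.4%). When all 81 mature probes were tested in the limma fit, the adjusted p was 0.618 for miR162, 0.843 for miR168 and 0.601 for miR403a, and 29 of 81 probes passed (35.8%). Leaving out leaves replicate 1, and so keeping the dim leaf array, gave miR403a a limma adjusted p of 0.0462 over the 6 tissues. That fit has a single leaf array, which is assumed to vary like the arrays of the other tissues. Over all other alternatives tried its adjusted p reached at most 0.853 and stayed above the threshold of 0.05.

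Across ripening, miR403a and miR168 had lower mean signals in veraison and mature berries than in green berries, and none of these differences passed the test. Neither miR403a (limma, adjusted p = 0.49 over 20 probes, 0.675 over 81) nor miR162 and miR168 (0.955 for both over 81) passed the F test over the 3 stages. No mature probe was called in it either (0 of 20, 0%, with 3 of 20 at an unadjusted p under 0.05). Without the filter on presence this was 0 of 81, with 10 of 81 at an unadjusted p under 0.05. The methods' one-way test was run here on single probes. It called 0 of 20 after adjustment and 3 of 20 at an unadjusted p under 0.05, miR403a not among them. The study used the unadjusted threshold and treated closely related miRNAs as replicates. It lists miR403a as more expressed in green berries than later in ripening. For miR403a mature minus green berries gave a log2 difference of -1.53 (SE 0.95, 95% interval -3.56 to 0.50), and veraison minus green gave -1.32 (SE 0.95, interval -3.34 to 0.71). Both depended on which green array was used: without green berries replicate 1 they were -0.75 and -0.54, and without replicate 2 they were -2.14 and -1.93. The 6 probes of 20 bases gave -1.38 to -0.48 for mature minus green. By its full-length probe, miR403a passed the background on both green arrays and on neither array of the later stages. Of the berry arrays, its 6 probes of 20 bases passed the background on green berries replicate 2 only.

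miR168 in mature minus green berries differed by -0.69 (SE 0.62, interval -2.01 to 0.63), with -0.91 by its probe of 20 bases. This difference kept its sign under all 18 alternatives, between -1.48 and -0.33. For any difference, the 18 include the replicate block, which leaves it unchanged. They also include arrays left out from other tissues, which act through the normalization only. In mature minus veraison berries, miR162 differed by 0.81 (SE 0.75, interval -0.78 to 2.41), but its probe of 20 bases gave 0.01. In mature minus green berries, miR162 differed by 0.30 (SE 0.75), a sign that 4 of 18 alternatives turned round.

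Among the vegetative and floral organs, miR403a and miR162 had higher mean signals in roots than in leaves and miR168 had a lower one, again without passing the test. The study lists miR403a as significantly higher in roots than in leaves and inflorescences, with a modest change, again by the unadjusted threshold. Why the calls differ was not tested. In the limma F test over roots, young inflorescences and leaves, 9 of 25 probes passed (36%), and miR403a did not (adjusted p = 0.504). Tested over all 81 probes, of which 27 passed (33.3%), the adjusted p was 0.567 for miR162, 0.686 for miR168 and 0.552 for miR403a. The call for miR403a differed in 2 alternatives: its limma adjusted p was 0.0388 without leaves replicate 1, again with a single leaf array assumed to vary like the others, and 0.0468 when arrays were scaled to the positive controls (U6 snRNA and tRNAs). In roots minus leaves, miR403a differed by 1.28 (SE 0.95, interval -0.75 to 3.31), and by -0.46 without leaves replicate 2. miR162 differed by 1.01 in roots minus leaves (SE 0.75, interval -0.59 to 2.61), with 1.31 by its probe of 20 bases, and it stayed positive under all 18 alternatives, from 0.53 to 2.11. miR168 differed by -0.59 (SE 0.62, interval -1.92 to 0.73), and by 0.28 under scaling to the positive controls, under which the median of all 81 mature probes was 0.55 in place of -0.27.

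None of the remaining contrasts had a 95% interval that left out 0. In young inflorescences minus leaves, miR162 differed by 0.58, miR168 by -0.58 and miR403a by 0.31, with a median of 0.43 over all mature probes that became 1.65 under scaling to the positive controls. In roots minus young inflorescences, miR162 differed by 0.43, miR168 by -0.01 and miR403a by 0.97 (SE 0.95, interval -1.06 to 2.99). All berries minus roots gave 0.09 for miR162, 0.09 for miR168 and -0.66 for miR403a (SE 0.77, interval -2.31 to 1.0). All berries minus leaves and young inflorescences gave 0.81 for miR162 (SE 0.48, interval -0.22 to 1.84), -0.21 for miR168 and 0.47 for miR403a. Every one of the 24 intervals contained 0.

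**Figure D3:**
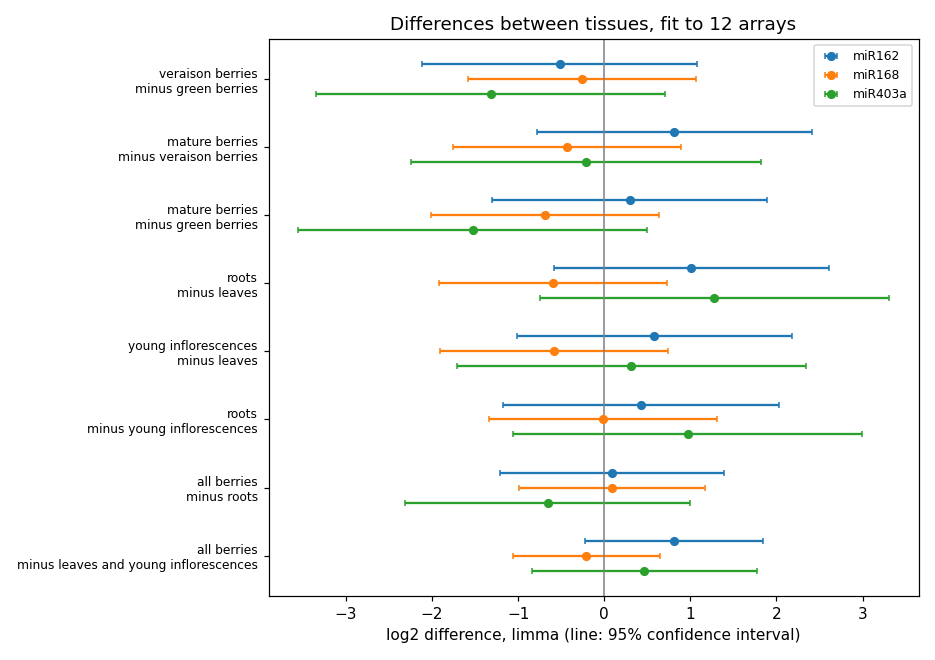
Log2 difference between tissues from the limma fit to 12 arrays for miR162, miR168 and miR403a, with lines giving the 95% confidence interval. All intervals cross 0, from the narrowest for miR168 to those of miR403a, which reach from -3.56 to 0.50 in mature minus green berries.

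The 7 miR403a probes offered a measure of error within arrays, since the 6 probes of 20 bases have one and the same sequence at different places of the array. Their coefficient of variation was 5.35% to 15.7% per array with a median of 9.78%, and their log2 range was at most 0.615. That range is over 6 raw readings, while the replicate differences below are between 2 normalized values, so the measures are unlike. By the probe of 21 bases, replicate arrays of miR403a differed by more than 0.615 in green berries (1.57), young inflorescences (1.51), leaves (3.45) and, slightly, mature berries (0.68), and by less in roots (0.54) and veraison berries (0.08). That probe varied more between its own spots (median coefficient of variation 23.8%, against 9.99% to 14.4% for those of 20 bases). By the 6 probes of 20 bases, replicates differed by 1.04 to 1.30 in young inflorescences and 2.14 to 2.86 in leaves, all above 0.615. They differed by 0.23 to 1.03 in green berries, 0.17 to 0.58 in mature berries, 0.07 to 0.64 in roots and 0.06 to 0.45 in veraison berries. In leaves the 6 probes read 806 to 1173 on replicate 1 and 92.0 to 127.5 on replicate 2, so the low reading of miR403a there was found on all 7 probes. On the same array miR168 read 1712, its highest value among leaves, roots and young inflorescences, and the background was 3586. In green berries the 6 probes read 1430 to 1981 on replicate 1 and 766 to 931 on replicate 2. The probe of 21 bases was brighter than those of 20 bases in 71 of 72 pairs of a probe and an array, with a median ratio of 1.68 in signal. For miR162 the median ratio to its probe of 20 bases was 1.17 and for miR168 it was 0.987. For the 59 other mature probes with such a shorter partner the median was 1.18 (0.447 to 2.65). Probes of different length bind differently, so these ratios are of signal only.

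**Figure D4:**
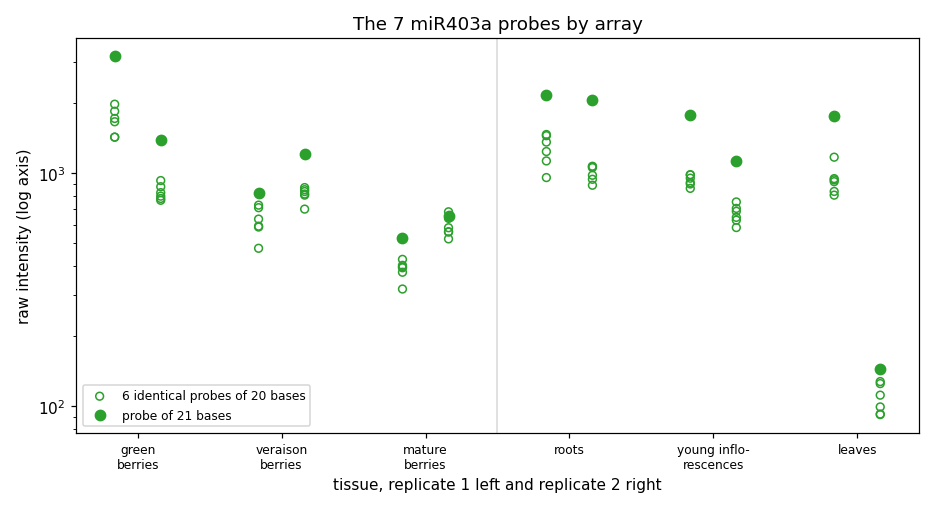
Raw intensity (log axis) of the 7 miR403a probes on each array, with the probe of 21 bases filled and the 6 identical probes of 20 bases open. The probes stay close together within an array, and all 7 are lowest on leaves replicate 2, where the identical probes read 92.0 to 127.5.

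Probes elsewhere on the same precursors had lower medians than the mature probe, and none of their 1092 readings (91 probes on 12 arrays) exceeded the background of 14 controls. Without the ubiquitin probe, 19 of these readings exceeded the background, 15 of them also with a PM/MM ratio above 1.2, while the full-length mature probes exceeded it on 9 arrays for miR162, 12 for miR168 and 11 for miR403a. In 8 readings a probe was at least as bright as the mature probe on the same array, 3 for miR162, 1 for miR168 and 4 for miR403. The signals are those of different sequences with unequal affinities and are given side by side only. For miR162, the median over 12 arrays was 573 for the mature probe, 250.2 for the probe moved 5 bases upstream, 109 for that moved 5 bases downstream, 138.5 for the miRNA star (the other strand of the excised duplex) and 5.0 for the loop. Its brightest reading outside the mature position was 1409, on mature berries replicate 2, by the probe moved 5 bases downstream, whose MM partner read 119.5. For miR168 the medians were 1148 for the mature probe, 203 and 398 for those moved 5 bases upstream and downstream, 70.5 for the star and 52.5 for the loop. Its brightest reading outside the mature position was 1726 by a shifted star probe on young inflorescences replicate 2. The probes moved by 10 bases had medians of 53.9 and 8.0 for miR162 and 84.5 and 65.2 for miR168, upstream and downstream.

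For miR403 the mature probe had a median of 1299, and the 6 precursors gave medians over their probes of 98.1 and 87.0 at 5 bases upstream and downstream, 26.2 and 20 at 10 bases, 88.8 for the star and 86.8 for the loop. The loop probes differed among precursors. On leaves replicate 2, those of precursors 1, 3 and 5 read 514, 646 and 677, above the 145 of mature miR403a on that array, and their MM probes read 2869, 2909 and 2696. The loop probes of precursors 2, 4 and 6 read 28, 15.5 and 1 there. The MM probe was brighter than the loop probe on 11, 9 and 12 of 12 arrays for precursors 1, 3 and 5. Leaves replicate 2 was among these arrays, so the loop signals there did not meet the specificity control. The loop probe of precursor 3 passed the ratio of 1.2 on 2 arrays. It read 688 against 452 for MM on young inflorescences replicate 2, and 402 against 208 on mature berries replicate 2. Both readings lay below the background of their array. The study marks precursor signal for MIR403C in inflorescences and mature berries.

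**Figure D5:**
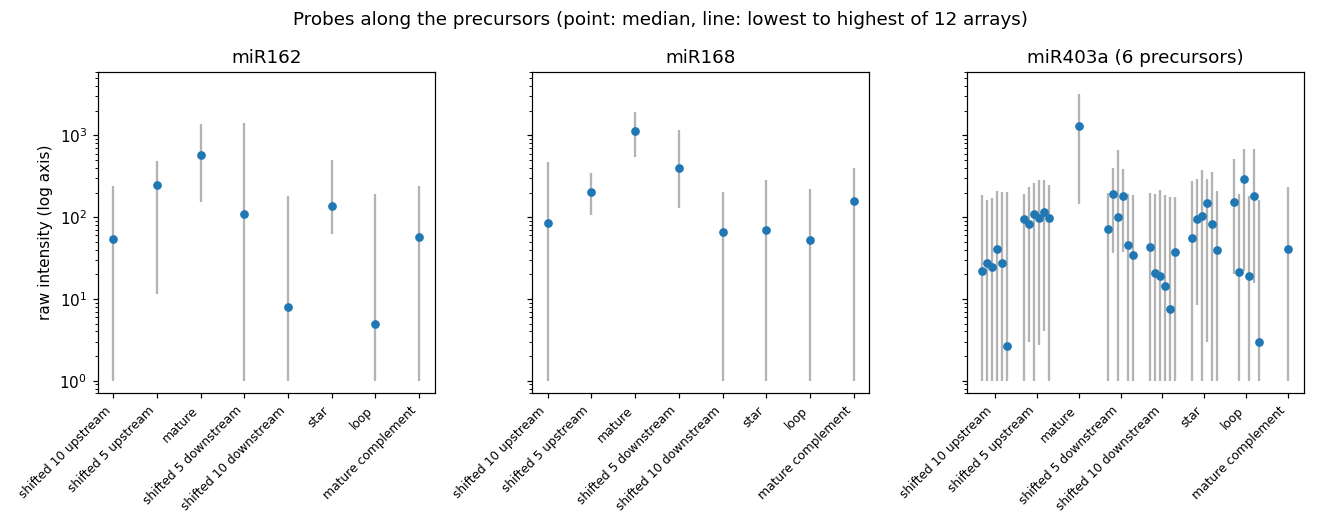
Raw intensity (log axis) of probes along the precursors of miR162, miR168 and miR403, with the median (point) and the lowest to highest reading (line) over 12 arrays; each of the 6 miR403 precursors has a point of its own where its probe differs. The mature position has the highest median in each panel, 573, 1148 and 1299.

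The profiles of the 3 miRNAs over the 12 arrays were not alike. Pearson's r was -0.27 between miR162 and miR168, 0.38 between miR162 and miR403a and 0.20 between miR168 and miR403a, as a description over 12 arrays that share their normalization and, in pairs, their tissue. Among present mature miRNAs of other families, those most like miR162 were miR166c (r = 0.79), miR393b (0.77) and miR159a (0.72). For miR168 they were miR167a (0.47), miR390 (0.42) and miR395a (0.39), and for miR403a miR166c (0.53), miR167a (0.43) and miR393b (0.41). The median r with the other 80 mature probes was 0.25 for miR162, -0.13 for miR168 and 0.04 for miR403a.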

How the data were processed

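Perfect match and mismatch intensities were deposited per array as medians over replicate spots in linear scanner units, and the authors' own table of quantile-normalized intensity was used as an alternative. The array held 3973 probes, each spotted 3 times. The 3 miRNAs, the probe lists and the tests were chosen with earlier results of these data known. Members are named with all values, other precursor probes as groups with the brightest named, and other miRNAs by the highest correlation, 3 per member and 1 per family. The mature probes were named by sequence (52 equal to a mature miRNA, 23 overlapping one, 6 unnamed). Intensities of the 1947 perfect match miRNA probes were quantile-normalized and log2-transformed, and limma (version 3.58.1, R 4.3.3) was fitted to the 12 arrays with tissue as the only term; the code was tested on simulated data. Adjusted p-values are Benjamini-Hochberg. Alternatives were other scalings, other filters, array weights, the methods' one-way test with adjusted p-values and leaving out each array. For the PM/MM test they included 1 mean ratio per tissue. The number of arrays, 2 per tissue, limits the precision.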

Additional observations from a re-analysis of the deposited data

How the results depend on the processing

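The number of pairs of a member and a tissue called present was the value most open to the processing. It was 2, and became 0 with a background of the mean plus 3 SD, 13 without the ubiquitin probe, 16 without the ubiquitin and Lambda Spike 8 probes, and 11 when 1 of 2 arrays was enough, and it lay between 2 and 5 when single arrays were left out (5 without young inflorescences replicate 2, 4 without green berries replicate 1 or leaves replicate 2). All 3 members passed the PM/MM test under each alternative. With 1 mean ratio per tissue the adjusted p was 0.0444 for each (exact sign-flip test), close to the threshold. It rests on the smallest exact p that 6 tissues allow. miR403a did not pass the F test over 3 berry stages in any of 23 alternatives, nor did miR162 and miR168 in the 3 and 4 alternatives in which the filter kept them. Over the 6 tissues and over the 3 organs, 0 of the members tested passed, with a range of 0 to 1 when single arrays were left out, and 1 member (miR403a) passed over the organs under scaling to the positive controls. Over all mature probes, the number passing was 12 over the 6 tissues (6 to 29 under the alternatives), 0 over the berry stages (0 to 1) and 9 over the organs (3 to 27). Of 432 alternative values of the 24 differences between tissues, 34 moved by more than the residual SD of the probe and 31 had the other sign, and of 306 alternative values of the levels, 26 moved by more than the SD of the replicates. Most of these 306 values come from leaving out single arrays. Leaving out 1 of 2 arrays moves their mean by less than their SD, apart from the normalization. The count of 26 therefore says little about how levels depend on single arrays.

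Replicate numbers are shared between tissues, but the labels do not say that a number marks a shared batch. The correlation of deviations of same-numbered arrays lay between -0.62 and 0.49, above 0.1 in 7 of 15 pairs of tissues, so the numbers were not taken to pair the samples. With the replicate number as a block, 0 members passed each of the 3 F tests, while 8 mature probes passed over the 6 tissues, 1 over the berry stages and 9 over the organs.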
